A study of Mus musculus with 11 samples.

Results

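Antisense transcription over annotated transcripts was examined in RNA-seq of im-scWAT cells, which are immortalized preadipocytes of mouse inguinal subcutaneous white fat. Each of 55419 UCSC transcripts has a sense value and an antisense value in FPKM (fragments scaled to exon length and to library size), and 29955 transcripts carry the mark of a representative transcript. An antisense row was taken as a member when it belonged to a representative transcript and reached an FPKM of 1 in at least 1 of the 2 untransduced day 8 libraries, with or without rosiglitazone (ROS, a PPARγ ligand). This gave 921 members, or 3.07% of the 29955 antisense rows, which lie at 815 separate places in the genome because some transcripts overlap each other. The members were thus chosen by their day 8 antisense FPKM, so day 8 values are given as a description. The members were then split at a ratio of 0.05 between antisense and sense FPKM of the same transcript, summed over the 2 day 8 libraries.

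The time course had 6 libraries. Preadipocytes at day 0 gave 2 libraries, labelled ROS plus and ROS minus but taken when differentiation was induced, and cells at day 4 and day 8 gave 1 library each with 0.5 μM ROS and 1 each without it. The other 5 libraries came from day 8 cells differentiated with ROS, all carrying an shRNA against mouse Jmjd1a (Kdm3a) and 1 version of human JMJD1A, an H3K9 demethylase. These versions were wild type (WT A and WT B), S265A, S265D and S265D-H1120Y, where S265 is a phosphorylation site and H1120 binds iron. The cells are 1 immortalized line, and nothing in the labels says that libraries of a group came from separate cultures, so any p-value measures only the spread between these libraries.

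Genes on opposite strands of the same DNA can overlap, most often where neighbouring genes run towards each other and their 3′ ends cross. In a library that keeps the strand of the RNA, a read from one gene of such a pair is counted as sense for that gene and as antisense for the other. A long antisense RNA of its own, an overlapping neighbour and a small share of reads assigned to the wrong strand all give antisense values of this kind.

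The coding starts of 4 opposite genes show how the same bases can lie within the span of a member on the other strand. Whether these bases lie in an exon of the member, and so enter its antisense value, was not checked. Each pair gives 30 bases of the NCBIM37 (mm9) genome inside the span of the member, first on the strand of the opposite gene and then on the strand of the member, with the start codon or its complement in capitals. Akr1b3 encodes aldose reductase and its window is chr6:34267376-34267405. Atp5l encodes a subunit of the mitochondrial ATP synthase and its window is chr9:44728715-44728744. Txnip encodes a thioredoxin-binding protein that restrains glucose uptake and its window is chr3:96362159-96362188. Tmem140 encodes a membrane protein and its window is chr6:34822551-34822580.
Akr1b3 strand: ATGgccagccatctggaactcaacaacggc
Gm6644 strand: gccgttgttgagttccagatggctggcCAT
Atp5l strand: ATGgccaagttcatccgtaacttcgcggag
AK017092 strand: ctccgcgaagttacggatgaacttggcCAT
Txnip strand: ATGgtgatgttcaagaagatcaagtctttt
AK143784 strand: aaaagacttgatcttcttgaacatcacCAT
Tmem140 strand: ATGgccttctccaggctgtggcggaacaac
3110062M04Rik strand: gttgttccgccacagcctggagaaggcCAT

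The libraries held 3.10 to 5.29 Gb of mapped bases. Of the bases on representative transcripts, 1.52% to 2.28% were antisense, with the lowest share at day 0 and the highest at day 8 with ROS. Over transcripts with no annotated gene on the opposite strand within 5 kb the antisense share was 0.254% to 0.319%. Adipocyte markers (Adipoq, Fabp4, Plin1, Cidec, Lpl and Pparg) summed to 281 and 284 FPKM at day 0 and to 9809 to 35956 FPKM in the differentiated time course libraries, and preadipocyte markers summed to 952 and 1028 FPKM at day 0 and to 186 to 737 FPKM in those libraries. Within the preadipocyte list Pdgfra went the other way, from 11.9 and 11.8 FPKM at day 0 to 18.3 to 50.2 in those libraries. Ly6a was 424 and 484 FPKM at day 0 and 495 at day 8 without ROS. Leukocyte markers summed to 0.602 to 4.42 FPKM in the differentiated time course and to 5.10 to 21.9 FPKM in the transduced libraries. Most of this was Cd68, and Ptprc and Emr1 were 0 in every library. Endothelial markers summed to at most 3.70 FPKM and muscle markers, through Des alone, to at most 12.2. The 3 epithelial markers stayed under 1 in every library. WT A stood apart from the other transduced libraries. Its median absolute log2 difference from them over sense rows was 0.309 to 0.401, against 0.178 to 0.242 between WT B and the mutants, so comparisons with WT are also given without WT A. All transduced libraries carry the shRNA, and the sense FPKM of its target Kdm3a was 20.4 and 17.9 in the WT libraries, 13.0 in S265A, 23.0 in S265D and 28.5 in S265D-H1120Y, against 21.1 at day 8 with ROS and no transduction. Whether reads of human JMJD1A enter that row was not tested. Relative to the mean over the time course, the median sense row was shifted by -0.136 on the log2 scale at day 8 with ROS and by 0.0551 without it.

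The split separated members of very different sense level. At or above the ratio of 0.05 were 614 members, with a median sense FPKM of 0.524 in the higher of their day 8 libraries, and under it were 307 members, with a median of 465. In the first set 430 members had more antisense than sense signal, 191 had at least 100 times more, and 79 were listed at 0 on the sense strand. Members just inside the ratio were Mtbp (0.0506), Rhoq (0.0514) and Spsb3 (0.0517), and those just outside were Mrrf (0.0496), Pkmyt1 (0.0480) and Pih1d1 (0.0463). Just inside the FPKM limit were AK052792, Chchd10 and Uqcrc1 at 1.00, and just outside were Neurl2 (0.995), Lrrc41 (0.994) and Rpl13a (0.992). The 614 members held 74.5% to 83.5% of all antisense bases in each library.

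**Figure D1:**
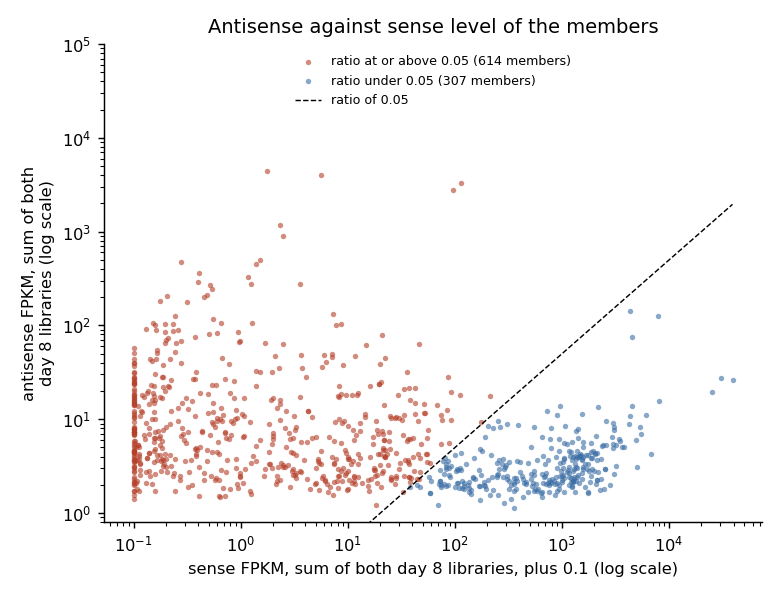
Antisense FPKM against sense FPKM of the same transcript for the 921 members, each summed over both day 8 libraries, on log axes. The 614 members at or above the ratio of 0.05 lie mostly at low sense level, and the 307 under it have a median sense FPKM of 465.

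The members were also found in libraries that the rule did not use. In the 9 other libraries, 491 of the 921 members reached an FPKM of 1 in all 9, and 33 did so in none. The share was 66.9% of the 614 members (411) and 26.1% of the 307 (80). Over all libraries the median antisense FPKM was 2.87 to 3.35 in the 614 and 1.05 to 1.66 in the 307, nearer the limit of 1. The share of all antisense rows was not computed.

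Members at or above the ratio lay mostly over an annotated gene on the other strand. The genomic strand, which the files do not give, was known from the annotation for 509 of the 614. Of these, 475 (93.3%, 95% Wilson interval 90.8% to 95.3%) shared exonic bases with a gene on the opposite strand, and the same was true of 74 of 284 members under the ratio (26.1%) and of 3777 of 22355 representative transcripts (16.9%). Any shared exonic base counted here, and 35.2% remained when at least 0.5 of the exonic length had to be shared. The interval treats members as independent, although the 614 lie at 558 separate places. Where the exons of a transcript were not known, its whole span stood in for them, with the overlap capped at its exonic length. Intronic bases can therefore count as shared, and AK143784, Tpt1p and Gm6644 were scored at 100% in this way. The strand of transcripts in the UCSC category of antisense was taken from the gene they oppose, which fixes their overlap, and the interval includes them. Without them the shares were 301 of 335 (89.9%) and 15.2% of the representative transcripts. A further 13 lay within the span of an opposite gene without sharing exons, 16 lay within 5 kb, and 5 (Rrbp1, Lrg1, Orm3, Hoxc9 and Rnls, named after their values were seen) had no such gene. In 252 of the 475 the 3′ ends faced each other, with a median of 684 shared bases. Another 129 lay inside the opposite gene, 76 had facing 5′ ends and 18 held the opposite gene.

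The antisense level of these members kept to the level of the gene across from them. For 460 members with a measured opposite gene, the SD over the libraries of the log2 ratio of antisense FPKM to the sense FPKM of the opposite gene had a median of 0.171. To their own sense FPKM the median was 0.563, and 443 of 460 (96.3%) kept closer to the opposite gene. Under the ratio this was true of 35 of 56. The SDs were taken with 0.1 added to each FPKM, which matters most where values are near 0. Where exons are shared the same reads can enter both rows, so the values are not independent, and own sense values near 0 vary more in any case. The antisense level was a median 0.217 of the level of the opposite gene, and 0.455 for members inside it.

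**Figure D2:**
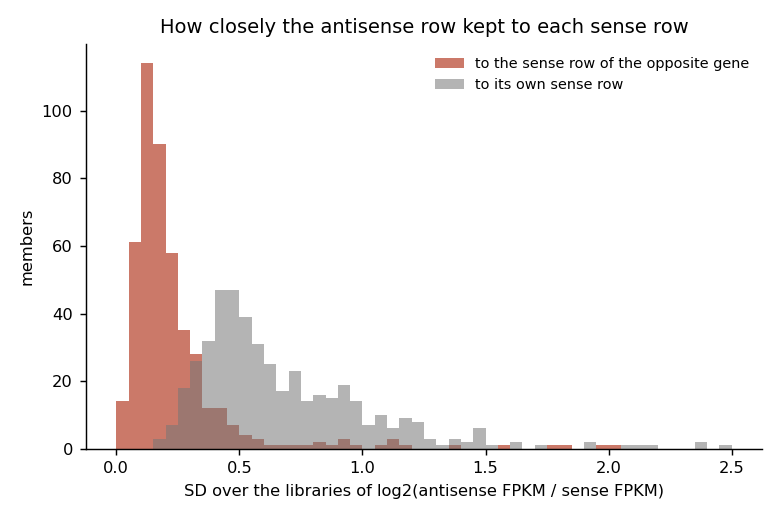
Histogram of the SD over the libraries of the log2 ratio of antisense FPKM to sense FPKM for members at or above the ratio of 0.05, against the sense row of the opposite gene (red) and against the member's own sense row (grey). The red bars lie lower, with a median of 0.171 against 0.563. Each FPKM had 0.1 added.

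The highest antisense row by its mean over the 11 libraries was BC114417 (chr19:44470814-44471417), which lies inside Scd1, the gene of a stearoyl-CoA desaturase that makes monounsaturated fatty acids. Its antisense FPKM was 108 and 106 at day 0, 1482 and 1634 at day 4 with and without ROS, and 1736 and 2716 at day 8 with and without ROS. Among the transduced libraries WT A had 3616, WT B had 3261, S265A had 3201, S265D had 4038 and S265D-H1120Y had 3001. Every differentiated library lay above both day 0 libraries, Tpt1p exceeded BC114417 in all time course libraries but day 8 without ROS, and the antisense level was 0.819 to 0.895 of the sense level of Scd1 in all 11.

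Tpt1p, which lies inside the gene of the translationally controlled tumour protein Tpt1, and Gm6644 had antisense levels in a nearly fixed proportion to the gene across from them. Tpt1p antisense FPKM ran from 1144 in S265D to 2343 at day 8 with ROS, and was 1.09 to 1.10 times Tpt1 in every library. Gm6644 antisense FPKM ran from 107 at day 4 without ROS to 216 at day 0, and was 1.03 times Akr1b3 in every library. Their own sense FPKM never exceeded 4.73 and 0.606. Tpt1 has processed copies elsewhere in the genome, so the assignment of its reads is uncertain.

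AK143784 (chr3:96359691-96370724) holds Txnip. Its antisense FPKM was 5.14 and 5.76 at day 0, 63.4 and 59.6 at day 4, and 229 and 47.2 at day 8 with and without ROS. WT A had 42.4, WT B had 143, S265A had 44.5, S265D had 66.9 and S265D-H1120Y had 22.0. The WT libraries thus differed more than 3-fold from each other, and S265A lay between them.

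3110062M04Rik (chr6:34821771-34828065) shares 2168 exonic bases with Tmem140. Its antisense FPKM was 6.48 and 6.10 at day 0, 14.0 and 9.23 at day 4, and 115 and 18.8 at day 8 with and without ROS. WT A had 26.5, WT B had 96.9, S265A had 50.9, S265D had 72.3 and S265D-H1120Y had 59.6. All 3 mutant libraries fell between WT A and WT B. Its own sense FPKM stayed between 1.76 and 4.28.

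AK182887 (chr15:57702600-57703194) lies inside Derl1, which encodes a protein of endoplasmic reticulum quality control. Its antisense FPKM was 64.1 and 68.9 at day 0, 215 and 165 at day 4, and 289 and 189 at day 8 with and without ROS, and it was 237 to 312 in the transduced libraries. The day 0 libraries lay below all others, and the level was 1.05 to 1.28 times that of Derl1. AK048798 lies across from Hif1a, which encodes a transcription factor of the response to low oxygen. Its antisense FPKM was 9.17 and 7.07 at day 0 and 1.99 to 4.88 in the differentiated time course, at 0.204 to 0.246 of the level of Hif1a.

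DQ072386 had an antisense FPKM of 318 to 669 over the 11 libraries with a sense FPKM of at most 1.42, and its strand was not known. Gm5148, which shares 396 exonic bases with Gm15450, and EG381438 cover the same place and had the same ratio of 352, so they are 1 observation. Of the members under the ratio, the highest by mean antisense FPKM were mt-Nd4, Atpase6, Cytb, Fabp4, Gapdh, DQ539915, Cox2, EF437368, Pkm2 and Cyb5r3. These include transcripts of the mitochondrial genome, a fatty acid carrier (Fabp4) and enzymes of glycolysis (Gapdh and Pkm2).

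**Figure D3:**
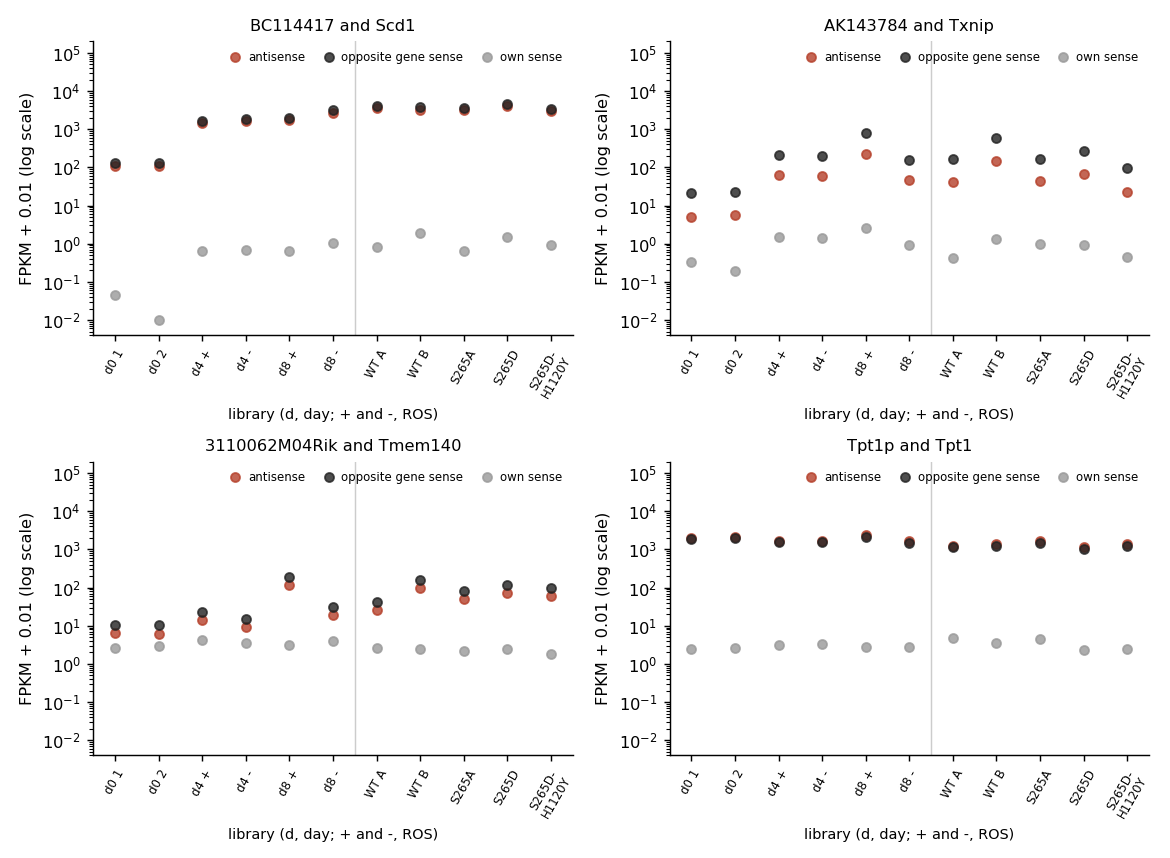
FPKM plus 0.01 on a log axis in each of the 11 libraries for BC114417, AK143784, 3110062M04Rik and Tpt1p: antisense (red), sense of the opposite gene (black) and own sense (grey). Red follows black in each panel, from 108 to 1482 for BC114417 between a day 0 library and day 4 with ROS, while grey stays low.

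Genes on the fixed lists were members in different ways. Of 20 general adipogenic genes 9 were members (Cebpa, Fabp4, Adipoq, Lpl, Pnpla2, Scd1, Retn, Cfd and Cidec), all under the ratio, against 566 of 21452 coding representative transcripts (2.64%). Their ratios ran from 0.000616 (Scd1) to 0.00704 (Cebpa). The median for well expressed transcripts with no opposite gene was 0.00211 at day 8 with ROS. Whether a high sense level alone made these genes members was not tested. Fabp4, a fatty acid carrier of adipocytes, had an antisense FPKM of 0.334 and 0.201 at day 0 and 5.98 to 21.4 in the differentiated time course, where its sense FPKM was 7631 to 31402. None of the 16 beige-selective, 10 matrix or 5 chromatin genes was a member, which says little for lists this short at a share of 2.64%. Kcnk3, a potassium channel on the beige-selective list, lies across from AK035982, whose antisense FPKM was 0 in both day 0 libraries, 2.29 at day 8 with ROS and 1.02 without. Fn1, the fibronectin gene on the matrix list, lies across from Gm15456, whose antisense FPKM was 15.1 and 13.8 at day 0, 2.58 and 3.90 at day 4, and 1.30 and 4.99 at day 8 with and without ROS.

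Among 26 genes of documented sense and antisense pairs, 3 were members. Nr1d1, a circadian nuclear receptor whose 3′ end crosses that of the thyroid hormone receptor gene Thra, had an antisense FPKM of 1.62 to 4.57 over the 11 libraries. Bace1, which encodes the β-secretase, had 1.23 to 3.26, and Gnas, which encodes a G protein α subunit, had 0.748 to 1.31. Of 10 representative transcripts on the mitochondrial genome 9 were members, 3 of them at or above the ratio (GU332589, AK141672 and BC071253). Their strand was not known, and nuclear copies of mitochondrial DNA make such reads uncertain.

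Day 8 cells with ROS were set beside day 8 cells without it, in the libraries that chose the members. Antisense FPKM was at least 2-fold higher with ROS in 56 of 921 members and at least 2-fold lower in 77, where 11.6% and 17.5% of all antisense rows and 4% and 15.2% of all sense rows compared were past these limits. Scaled to the median of the sense rows, the counts became 70 higher and 60 lower, so the balance between the directions depended on the scaling. Of sense rows that reached 1 FPKM at day 8, 2.51% were higher and 9.73% lower. Largest were Chchd10 (8.06-fold), 3110062M04Rik (6.09-fold), Cidec (5.62-fold), Dclre1b (5.58-fold), AI507597 (5.22-fold) and AK143784 (4.86-fold). The sense rows of Chchd10 and Cidec were 7.40-fold and 4.79-fold higher too, and their antisense to sense ratios, 0.00319 and 0.00117, were near the median of 0.00211 for well expressed transcripts with no opposite gene in the day 8 library with ROS. Smallest were Tmsb10 (0.107), AK214072 (0.132), Hist1h1c (0.140), Igtp (0.145), Aurkaip1 (0.162) and AK016887 (0.170). At or above the ratio, 17 members with a measured opposite gene were higher and in 12 of them that gene was also 2-fold higher.

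At day 4, 13 of 920 members were 2-fold higher with ROS and 17 lower, against 9.72% and 12.6% of all antisense rows and 2.2% and 4.51% of all sense rows. At the members' own minimum, an FPKM of 1 at day 8, 0.521% and 1.07% of sense rows were past 2-fold. In the day 0 pair 21 of 882 members were 2-fold higher in the second library and 18 lower, against 9.35% and 11.1% of all antisense rows. limma (Benjamini-Hochberg adjusted p under 0.05) called 0 members and 0% of 22583 rows for ROS at day 4. Centred on the median of the sense rows, the same fit called some members and also rows outside them, so its calls are not a result about the members.

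Day 4 was set beside the mean of the day 0 libraries. With ROS, 227 of 920 members were 2-fold higher and 96 lower, against 23.6% and 19.5% of all antisense rows and 17.7% and 18.4% of all sense rows. Without ROS 216 were higher and 93 lower, against 25.9% and 18.7% of antisense rows and 18.5% and 15.2% of sense rows. Of sense rows that reached 1 FPKM at day 8, 16.8% were higher and 12% lower with ROS, and 16.8% and 9.42% without it. The shares of members that were higher, 24.7% and 23.5%, were near those of all antisense rows, and the shares that were lower, 10.4% and 10.1%, were smaller. Members had to reach an FPKM of 1 in differentiated cells and not at day 0, so this choice itself favours higher over lower values at day 4. Both comparisons use the same day 0 libraries. At or above the ratio, 91 members with a measured opposite gene were higher with ROS. In 71 of these the opposite gene was 2-fold higher too, and in 26 the member's own sense row was. Own sense rows were compared for only 413 of the 614 members, and shared reads can enter both the member and the opposite gene.

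limma called 132 members higher and 63 lower at day 4 with ROS, where 23.1% of all rows were called, and 102 and 45 without ROS, where 18.2% were called. The log2 change with ROS was 3.79 ± 0.09 (SE, limma adjusted p = 0.0333) for BC114417 and -2.44 ± 0.10 (limma adjusted p = 0.0333) for Gm15456. Day 4 with ROS is 1 library, so these errors hold only the spread of the day 0 pair, and the choice of members on differentiated cells bears on these calls too. Where a day 0 library is left out, the spread in a fit over all libraries comes from the WT pair alone. The calls fell to 0 when either day 0 library was left out in a fit over all libraries, or when antisense rows were fitted alone.

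S265A was set beside the mean of both WT libraries to ask whether the loss of the phosphorylation site moved antisense levels. In S265A 23 of 921 members were 2-fold higher and 27 lower, against 8.43% and 11.8% of all antisense rows and 3.41% and 7.55% of all sense rows, and 1.06% and 2.57% of sense rows that reached 1 FPKM at day 8. WT B over WT A alone gave 93 higher and 142 lower of 920, against 17.9% and 27% of all antisense rows. Without WT A the S265A counts were 75 and 44, and without its replicate 68 and 52. The shares of all rows above are for the mean of both WT libraries and were not computed with a WT library left out. With S265A on 1 side of both WT libraries, largest were Fabp5 (5.66-fold), AK016887 (4.13-fold), AK137033 (3.62-fold), Mt2 (3.40-fold) and Atp5c1 (2.98-fold), and smallest were Sf3b5 (0.0229), Rpph1 (0.121), Hoxa10 (0.127), Cox2 (0.201) and AK015772 (0.254). Hoxa10 antisense FPKM was 10.7 in WT A but 0.788 in its replicate and 0.733 in S265A, so its ratio rested on WT A. Sf3b5 likewise had 2.13 in WT A, 0.0735 in its replicate and 0.0252 in S265A. The ratios of Rpph1 and AK015772 rested on WT B, since Rpph1 had 3.73 there, 0.353 in WT A and 0.247 in S265A, and AK015772 had 1.35, 0.251 and 0.203. AK137033, whose 3′ end crosses that of the Wnt modulator gene Sfrp2, had 1.90 in WT A, 2.09 in its replicate and 7.23 in S265A, and the opposite gene had 10.2, 9.55 and 36.9.

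In S265D 9 of 920 members were 2-fold higher than WT and 62 lower, against 5% and 19.3% of all antisense rows and 4.02% and 5.56% of all sense rows and 1.06% and 1.55% of sense rows that reached 1 FPKM at day 8, and 53 of the 62 were under the ratio of 0.05. Without WT A the counts were 20 and 34, and without WT B they were 57 and 118. With a pseudocount of 1 they were 2 and 6. The shares of all rows were not computed in these other settings, so they cannot be set beside these counts. The median antisense to sense share over well expressed transcripts with no opposite gene was 0.189% in S265D and 0.247% and 0.211% in the WT libraries, and its part in these counts was not tested. In S265D-H1120Y 32 of 920 were 2-fold higher than in S265D and 45 lower, against 13.3% and 13% of all antisense rows and 5.62% and 8.66% of all sense rows, and 2.14% and 4.59% of sense rows that reached 1 FPKM at day 8. limma called 0 members and 0% of 22554 rows in each of the 3 comparisons, S265A and S265D over WT and S265D-H1120Y over S265D.

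**Figure D4:**
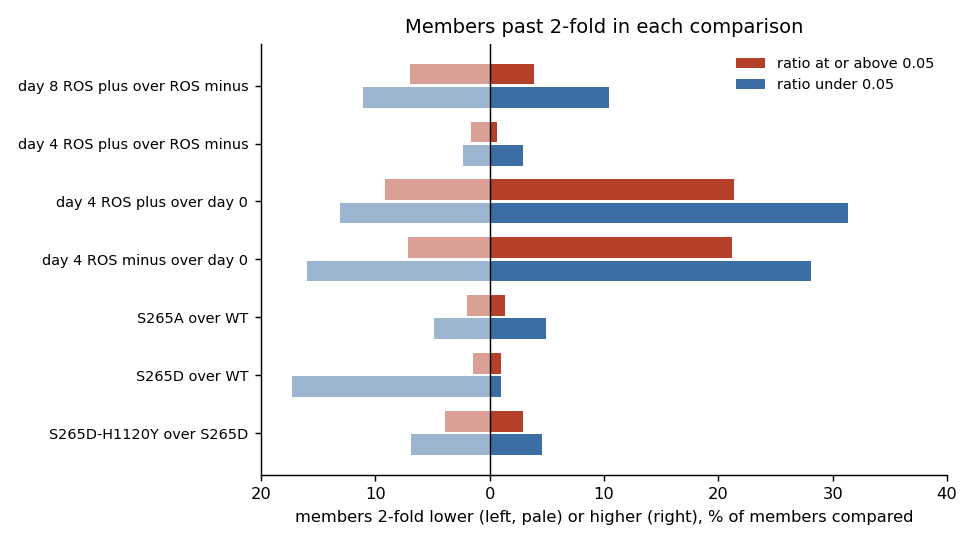
Share of the members compared that were at least 2-fold lower (left, pale) or higher (right) in each comparison, for members at or above (red) and under (blue) the ratio of 0.05. Day 4 over day 0 has the longest bars, and S265D over WT has 53 members under the ratio on the lower side.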

How the data were processed

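The authors aligned reads of TruSeq libraries to UCSC transcripts and the mm9 genome with Burrows-Wheeler aligner and deposited strand-specific FPKM per transcript, with coverage (signal) as mapped bases in the deposited files. FPKM is not a count, so no count test was used. The members and lists were chosen with earlier results of these data known. Strands and exons came from an annotation of NCBIM37, and the span of a transcript stood in where its exons were not known. Ratios between libraries used rows with an FPKM of at least 0.1 in 1 sample compared, with no pseudocount. The SDs of log2 ratios were taken on FPKM + 0.1. limma 3.58.1 in R 4.3.3 was fitted to log2(FPKM + 0.1) over representative rows of both strands, for 6 time course and 5 transduced libraries separately, with 1 residual degree of freedom each. In simulated data for day 4 ROS plus over ROS minus with 22583 rows, it recovered 173 of 200 rows changed by 4 on the log2 scale, with 18 false calls. The spread of the simulated rows was set in advance and not taken from these libraries. The simulation therefore does not give the power of the reported fits, and the transduced libraries were not simulated. Named members were the highest by level, by ratio and by change, those at the limits, and those on fixed lists. Depth was 3.10 to 5.29 Gb; intervals cover counting error only.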

Additional observations from a re-analysis of the deposited data

Results flagged for a closer look

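In 6 members the ROS ratio of antisense FPKM was past 2-fold in opposite directions at day 4 and day 8, with 1 library per arm, and the difference was not tested. Gas5 had 0.258 at day 4 and 2.86 at day 8, and Tpm4 had 0.492 and 2.77. The other 4 went the opposite way, with 2.74 and 0.202 for Irf1, 2.08 and 0.441 for AB343394, 2.13 and 0.342 for Hist1h2bc, and 2.30 and 0.368 for Ccdc72.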

How the results depend on the processing

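Of 205 alternative values for the comparisons, 132 stayed within 1.5 times the reported count or within its error and 73 moved, and the cause was not tested unless given here. Those that stayed include many limma counts of 0 that remained 0, for ROS at day 4 and for every mutant comparison. With 1 residual degree of freedom a count that stays at 0 says little, so the tally does not measure how stable the results are. For ROS at day 4 the counts did move in the centred fits. A minimum FPKM of 0.5 gave 1580 members and of 2 gave 546. Asking for 0.5 of the exonic length to be shared lowered the overlap to 35.2%, and counting only opposite genes of at least 1 FPKM gave 89.2%. The antisense share was 1.22% to 1.79% over all rows and 0.254% to 0.319% over transcripts without an opposite gene.

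Scaling to the median of sense rows kept each 2-fold count within 1.5 times, but turned the balance for ROS at day 8 to 70 higher and 60 lower. With a pseudocount of 1, members higher and lower numbered 13 and 30 (day 8 ROS), 1 and 3 (day 4 ROS), 105 and 55 (day 4 with ROS over day 0), 95 and 53 (without ROS), 4 and 14 (S265A), 2 and 6 (S265D), and 8 and 11 (S265D-H1120Y). A pseudocount of 0.1 gave 8 higher at day 4 with ROS, 13 higher in S265A and 39 lower in S265D. With the leak subtracted, there were 39 and 59 at day 4, 47 and 55 in S265A, 28 and 109 in S265D, and 61 higher in S265D-H1120Y. Leaving out a WT library gave 68 to 75 higher and 44 to 52 lower for S265A, and 20 to 57 higher and 34 to 118 lower for S265D. Shares of all rows were not computed for the counts in this paragraph.

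The limma calls depended on the fit. Where a day 0 library was left out, the spread came from the WT pair alone. For day 4 with ROS over day 0, higher and lower, they were 36 and 11 with no filter, 303 and 175 centred, 9 and 2 over all libraries, 0 and 0 on antisense rows alone or without either day 0 library. Without ROS they were 20 and 2, 275 and 195, 4 and 0, and 0 and 0, and a pseudocount of 1 gave 156 higher. Centring gave 2 and 5 for ROS at day 4. The prior had 0.983 degrees of freedom as reported and 2.59 without 707 rows tied in the day 0 pair. Centring raised it to 18.9 with the tied rows and without limit when they were left out, and moved the median difference of the day 0 pair from 0 to -0.044, and the cause was not tested. In fits added after seeing the data, without tied rows, the calls were 210 and 129 with ROS and 196 and 118 without, and also centred they were 300 and 193, 271 and 209, and 8 and 12 for ROS at day 4. Between mutants and their controls 0 members were called in every fit run. With both day 4 libraries as 1 group, which ignores ROS and was added after seeing the data, a fit by day called 226 higher and 118 lower of 921 members, and 7268 of all 22583 rows. A replicate block pairing libraries by their ROS label gave 223 and 119, and 7244 of all rows. The limma counts are therefore a description of these fits and not a result about the members, since rows outside the members were called as well.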
